A study of Homo sapiens with 6 samples.

Results

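The interferon and RNA sensing genes are 35 genes whose products detect foreign RNA in a cell, signal downstream of interferon receptors, or are made in response to interferon. They were chosen by gene symbol in the annotation of the array, with 1 probe set per gene, the one with the highest mean signal over the 6 arrays. Of the 35 genes, 34 had a probe set of their own, and STAT2 was not analysed here. The array as a whole had a probe set for 19775 genes. Of the 34 members, 26 passed the filter on dim signal and were tested, among 12431 genes tested in all.

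The cells were VCaP, an established prostate cancer cell line with the genotype TMPRSS2/ERG, a gene fusion that places the ERG transcription factor under an androgen-responsive promoter, and with high basal SOX9. They received SOX9 siRNA A, SOX9 siRNA B or a control duplex without a target, and their RNA was isolated at 72 h, so every group carried a transfected duplex and untransfected cells were not analysed here. Each of the 3 groups held 2 Affymetrix U133 Plus 2.0 arrays, called biological duplicates in the study's design text. All values come from 1 cell line, and the comparison of interest was whether either SOX9 duplex differed from control, or from the other duplex, in these genes. With 2 arrays against 2, an exact permutation test of a single value cannot give a p below 0.333, so differences were tested with limma, which estimates the spread across all genes. The signal is the brightness that the MAS5 algorithm gives a probe set, and fold changes are differences of log2(signal + 16) between group means, the first-named group minus the other. A gene was tested if its mean lay above the median of all probe sets, a signal of 22.0, and it was called at a limma adjusted p below 0.05.

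Short RNA duplexes can be recognised inside a cell as foreign. TLR3 in endosomes, and RIG-I and MDA5 (the product of IFIH1) in the cytosol, detect RNA duplexes and start a cascade that leads to the secretion of type I and type III interferons. Interferons then act on receptors of the same or neighbouring cells through JAK kinases, STAT proteins and IRF9, whose complex binds the interferon-stimulated response element (ISRE) in the promoters of its target genes. Interferon gamma acts through a different element, the gamma-activated sequence (GAS). The target genes include RNA-binding proteins that block viral translation, enzymes that activate RNA decay, the ubiquitin-like protein ISG15, chemokines and the peptide supply for antigen presentation.

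Promoters are the regions in which the ISRE and GAS elements of such genes are known to lie. The windows printed here were picked because they belong to CXCL10, the member with the largest measured difference from control, and to 3 members (OAS1, ISG20 and ISG15) whose signals lay on opposite sides of control with the 2 duplexes. Each is the RefSeq window of GRCh38.p14 from 250 bases before to 50 bases after the gene start, 300 bases written 5′ to 3′ on the strand of the gene, and the capitals mark matches to the ISRE core (GAAA, any 2 bases, GAAA) or to the GAS letters TTCNNNGAA, both searched on both strands.
CXCL10, chr4:76023448-76023747, minus strand: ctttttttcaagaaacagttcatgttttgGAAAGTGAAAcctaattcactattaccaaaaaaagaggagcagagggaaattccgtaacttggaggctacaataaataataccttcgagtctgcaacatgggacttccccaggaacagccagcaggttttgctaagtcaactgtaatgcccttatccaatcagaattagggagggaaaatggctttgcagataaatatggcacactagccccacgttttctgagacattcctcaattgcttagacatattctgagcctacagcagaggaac
OAS1, chr12:112906712-112907011, plus strand: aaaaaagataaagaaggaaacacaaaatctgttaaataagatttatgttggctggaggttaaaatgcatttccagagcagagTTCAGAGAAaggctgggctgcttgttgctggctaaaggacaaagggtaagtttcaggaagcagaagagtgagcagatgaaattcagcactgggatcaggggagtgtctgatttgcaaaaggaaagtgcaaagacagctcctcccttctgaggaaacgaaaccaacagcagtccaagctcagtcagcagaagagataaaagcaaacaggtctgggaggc
ISG20, chr15:88638766-88639065, plus strand: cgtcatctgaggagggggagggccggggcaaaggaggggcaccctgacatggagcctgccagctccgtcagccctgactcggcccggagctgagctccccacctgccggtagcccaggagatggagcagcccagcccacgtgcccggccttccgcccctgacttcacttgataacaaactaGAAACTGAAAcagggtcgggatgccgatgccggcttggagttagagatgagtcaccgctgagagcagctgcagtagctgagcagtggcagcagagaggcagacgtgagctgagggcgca
ISG15, chr1:1013247-1013546, plus strand: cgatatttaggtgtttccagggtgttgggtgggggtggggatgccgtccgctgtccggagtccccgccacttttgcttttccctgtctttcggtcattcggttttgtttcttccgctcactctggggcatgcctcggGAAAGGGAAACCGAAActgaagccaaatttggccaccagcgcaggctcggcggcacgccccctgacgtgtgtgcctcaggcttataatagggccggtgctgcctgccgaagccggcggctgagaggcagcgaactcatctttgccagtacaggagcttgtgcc

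In the CXCL10 window the ISRE core lies 221 bases before the gene start, and in the ISG20 window 69 bases before it. The ISG15 window holds 2 overlapping ISRE cores, which begin 113 and 107 bases before the start. The OAS1 window holds a GAS match 168 bases before the start and no match to the ISRE core with its 2-base gap. It does hold gaaacgaaa, in which the GAAA repeats lie closer and which the search could not match. A window without a match is therefore not shown to lack an ISRE. Of the members, 29 had a window in the promoter table, and the ISRE core was present in 19 of them (65.5%), against 3.57% of all 35116 promoter windows. GAS letters were present in 9 of the 29 (31%), against 7.66% of all windows. The windows of TAP1 and PSMB9, neighbours on chromosome 6 that are read in opposite directions, share 13 bases. A match describes the sequence and is neither a binding site nor a cause.

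SOX9, the target of both duplexes and a transcription factor, was read first as a check of the labels. It had signals of 1107.9 and 672.6 under siRNA A, 609.3 and 333.5 under siRNA B, and 1469.3 and 1126.2 under control siRNA. All 4 siRNA arrays lay below both control arrays. Against control, siRNA A gave a log2 fold change of -0.57 with a limma adjusted p of 0.999. For siRNA B it was -1.48 with a limma adjusted p of 0.113, which was 1.8e-05 once the replicate number entered the fit as a block (the replicate block). The 8 luminal prostate and fusion markers with a probe set, among them KLK3, KRT8 and ERG, exceeded the filter on all 6 arrays, while PTPRC, the defining marker of leukocytes, ran between 1.2 and 23. Of the 12 leukocyte markers with a probe set, 2 were tested (CD79A and NCAM1), 1 exceeded the filter on all 6 arrays and 5 on none. The replicate 2 array of siRNA B had the highest 2%-trimmed mean signal, 189, and the replicate 1 array of siRNA B the lowest, 143. Summed signals of the 12 leukocyte markers were 201.6 and 202.7 under siRNA A, 199.3 and 295.3 under siRNA B and 205.7 and 261.3 under control siRNA, and their part in the results was not tested. Summed signals of the 9 fibroblast and endothelial markers, of which 3 were tested, were 427.4 and 788.1 under siRNA A, 994.4 and 2306.3 under siRNA B and 377.4 and 566.8 under control siRNA. Both siRNA B sums were thus the highest, LUM made up much of the difference, and their part in the results was not tested either. The GAPDH 3′/5′ ratio, a measure of RNA quality, was 1.10 and 1.19 under siRNA A, 1.11 and 1.11 under siRNA B and 1.05 and 1.04 under control siRNA. All 4 siRNA arrays were above both control arrays, and the part of RNA quality in the results was not tested.

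No member passed the test against control with either duplex, with both duplexes together, or between duplexes. In siRNA A against control, 0 of 26 members were called at a limma adjusted p below 0.05 (all genes, 0.0161% called) and 1 had an unadjusted p below 0.05 (all genes, 4.69%). In siRNA B against control, 0 of 26 were called (all genes, 0.185%) and 1 had an unadjusted p below 0.05 (all genes, 11.3%). With both SOX9 duplexes against control, 0 were called (all genes, 0.0402%), and 2 had an unadjusted p below 0.05 (all genes, 7.75%). In siRNA A against siRNA B, 0 were called (all genes, 0.0965%), and 2 had an unadjusted p below 0.05 (all genes, 8.25%). In none of the 4 comparisons did the share of members at an unadjusted p below 0.05 exceed that of all genes. With the replicate block, 1 member was called for siRNA A against control (all genes, 1.79%), 1 for siRNA B against control (all genes, 5.94%) and 1 for both against control (all genes, 3.53%), CXCL10 each time. Between duplexes the block called 2, CXCL10 and USP18 (all genes, 2.9%).

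The 26 log2 fold changes had a median of -0.28 under siRNA A, against a median of -0.05 over all genes tested, and 23 of 26 were below 0 (88.5%, against 56.9% of all genes). With siRNA B the median was -0.05, against -0.02 over all genes, and 16 of 26 were below 0. Between duplexes, siRNA A against siRNA B, the median was -0.30, against -0.03 over all genes, and 19 of 26 were below 0 (73.1%, against 54.5%). The 2 comparisons with control share the control arrays, so their values are given side by side and were not correlated. The median difference from the control mean, per array, was -0.08 and -0.46 for siRNA A, -0.11 and 0.07 for siRNA B, and -0.04 and 0.04 for control. Over all genes tested it was -0.01 and -0.08 for siRNA A, -0.17 and 0.13 for siRNA B, and -0.07 and 0.07 for control. In the replicate 2 array of siRNA A, 23 of 26 members lay below the control mean, and without that array the median of siRNA A against control was -0.08. The same array had the highest GAPDH 3′/5′ ratio of the 6, 1.19. The median of siRNA A against siRNA B was 0.056 without the replicate 2 arrays of both duplexes, and 11 of 26 members were then lower. Over all genes tested the median was then 0.154, and 29.5% of genes were lower.

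For a rise of 2-fold, the 95% interval of the log2 fold change, not adjusted for the number of genes, excluded that size in 26 of 26 members under siRNA A (91.3% of all genes) and in 23 of 26 under siRNA B (84.7%). In siRNA A against siRNA B it excluded a 2-fold higher level under siRNA A in 25 of 26 (87.2%). A 2-fold difference in either direction was excluded in 17 of 26 members for siRNA A against control (76.7% of all genes), in 18 for siRNA B against control (67.1%) and in 13 for siRNA A against siRNA B (71.5%). For the other members the intervals reach a 2-fold difference. The median half-width of these intervals was 0.65 on the log2 scale for each duplex against control.

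**Figure D1:**
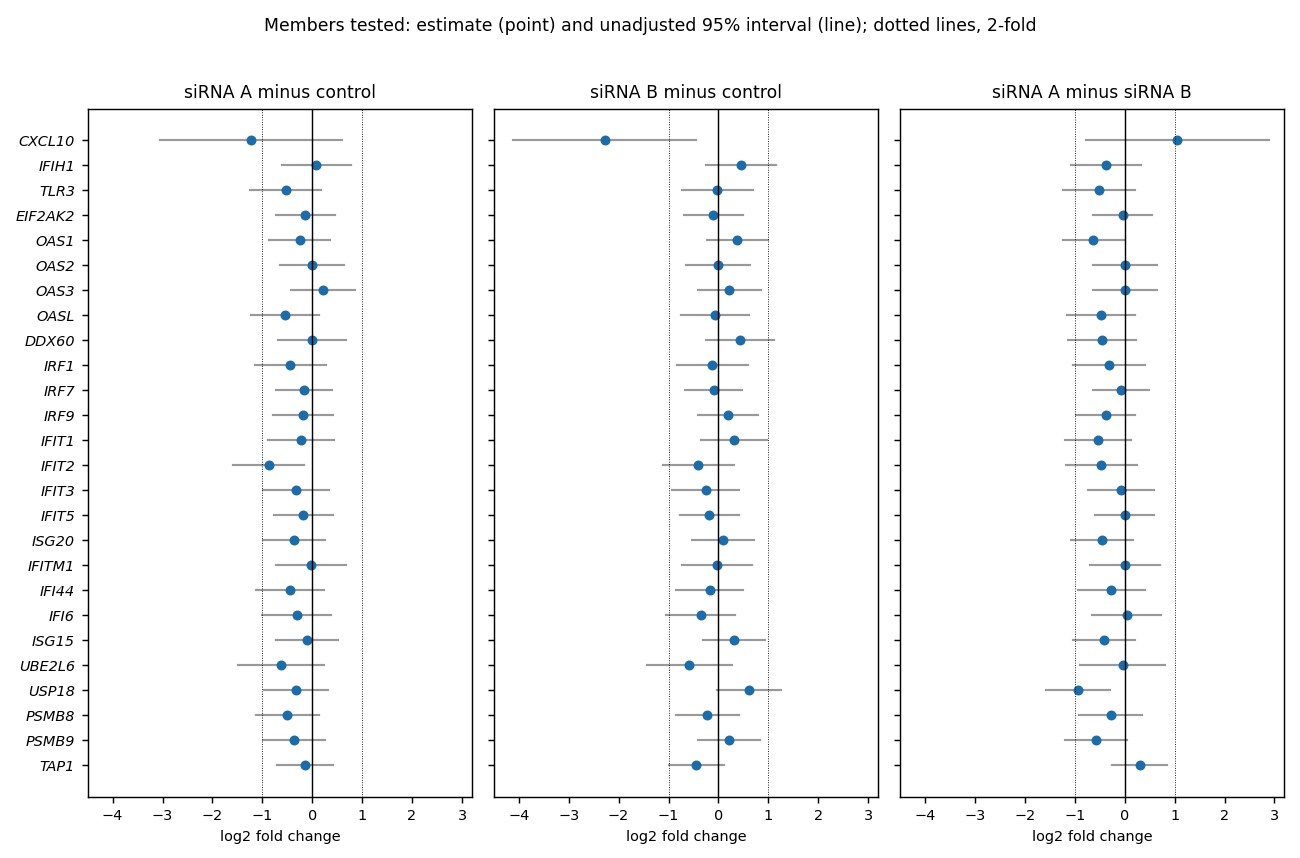
Log2 fold change of the 26 tested members with the 95% limma interval, not adjusted for multiple genes, in 3 panels (siRNA A over control, siRNA B over control, siRNA A over siRNA B), with dotted lines at 2-fold. CXCL10 has the widest interval, and its point for siRNA B against control is at -2.28.

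CXCL10, an interferon-induced chemokine that draws T cells and natural killer cells, showed the largest difference from control. Its signals were 1856.1 and 124.6 under siRNA A, 609.8 and 81.5 under siRNA B, and 1199.0 and 1174.2 under control siRNA. The 2 control arrays were alike, while the replicate 2 arrays of both duplexes were far below the other 4 arrays, and the replicate 1 array of siRNA A was the highest of the 6. The log2 fold change was -2.28 under siRNA B (SE 0.86, limma adjusted p = 0.326) and -1.23 under siRNA A (SE 0.86, limma adjusted p = 0.999). The replicate block gave limma adjusted p-values of 8.75e-13 for siRNA B and 0.00258 for siRNA A. With median centring added to the block they were 0.000598 for siRNA B and 0.169 for siRNA A. The block assumes the same shift from replicate 1 to replicate 2 in every group. CXCL10 instead fell far under both duplexes and hardly under control, so its blocked p-values may be too low. For siRNA B the SE was 0.28 with the block, against 0.86 without it, since the trend over all genes alone set the spread. Fits with arrays left out hold a lone array in at least 1 group, so only their log2 fold changes are given here. Without the replicate 2 arrays of both duplexes, CXCL10 was 0.64 under siRNA A and -0.94 under siRNA B. Without control replicate 1 the value for siRNA B was -2.27, and without control replicate 2 it was -2.30. Without the replicate 1 arrays of both duplexes, CXCL10 was -3.10 under siRNA A and -3.62 under siRNA B. Between duplexes its log2 difference was 1.05 (limma adjusted p = 0.884, 0.0131 with the block, and 0.134 with the block and median centring). In these bulk samples, fewer cells that express a gene and less RNA per cell cannot be told apart.

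**Figure D2:**
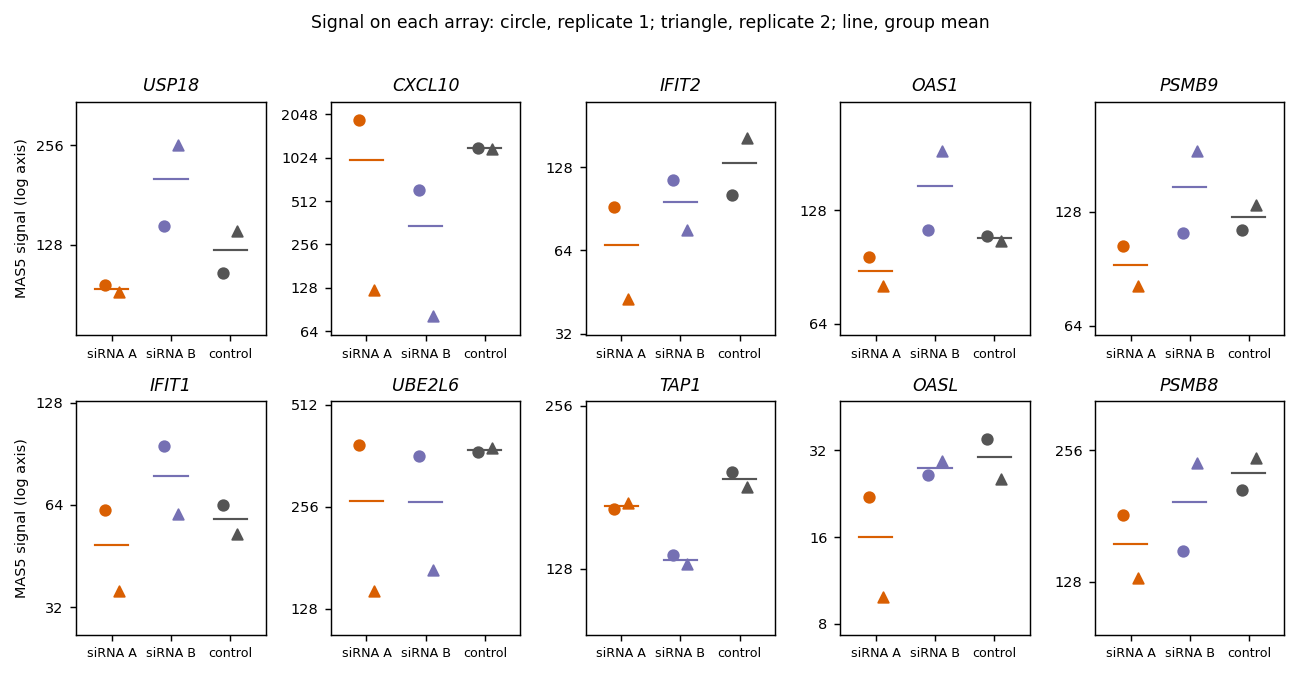
MAS5 signal, on a log2 axis, of the 10 members with the smallest unadjusted p in any comparison, by group (siRNA A, siRNA B, control), with circles for replicate 1, triangles for replicate 2 and a line at the group mean. CXCL10 and UBE2L6 lie far apart between replicates with both SOX9 duplexes, at 1856.1 and 124.6 for CXCL10 under siRNA A.

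No member that detects RNA or is activated by it passed the test. IFIH1, which encodes the MDA5 sensor of long RNA duplexes, had signals of 318.9 and 450.4 under siRNA A, 361.7 and 676.2 under siRNA B, and 329.7 and 387.6 under control siRNA. Its log2 fold change was 0.08 under siRNA A and 0.45 under siRNA B (95% interval -0.24 to 1.15, limma adjusted p = 0.674), and its groups overlapped in both cases. The other IFIH1 probe sets, which were much dimmer, gave 0.11 and 0.39 under siRNA A and 0.04 and 0.14 under siRNA B. In siRNA A against siRNA B they gave 0.07 and 0.25, against -0.37 for the brightest, so the sign differed. TLR3, the endosomal sensor, had 212.5 and 87.6 under siRNA A, 181.2 and 227.5 under siRNA B, and 223.2 and 191.5 under control siRNA, and its replicate 2 array under siRNA A was the lowest of the 6. Its log2 fold changes were -0.53 under siRNA A and -0.02 under siRNA B. A further TLR3 probe set gave -0.75 under siRNA A and -0.21 under siRNA B. EIF2AK2 encodes the kinase PKR, which stops translation when it binds RNA duplexes. It had 924.0 and 852.9 under siRNA A, 766.3 and 1086.3 under siRNA B, and 974.5 and 989.6 under control siRNA, and the log2 fold changes were -0.14 under siRNA A and -0.10 under siRNA B. Its other probe sets gave 0.02 and 0.17 under siRNA A and 0.30 and 0.26 under siRNA B, so its probe sets differed in sign.

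The oligoadenylate synthetases make the messenger molecule that activates RNase L. OAS1 had 96.4 and 80.8 under siRNA A, 113.7 and 184.2 under siRNA B, and 109.8 and 106.5 under control siRNA. Both siRNA A arrays lay below both control arrays, and both siRNA B arrays lay above them. Its log2 fold change against control was -0.25 under siRNA A and 0.38 under siRNA B. OAS1 was lower under siRNA A than under siRNA B in value (log2 difference -0.63, SE 0.29, 95% interval -1.23 to -0.02) but this difference was not called (limma adjusted p = 0.589). The other OAS1 probe set, with 59.0 and 46.5 under siRNA A, 83.7 and 95.7 under siRNA B and 69.3 and 64.1 under control siRNA, gave -0.62. OASL, a related protein that enhances RIG-I signalling, had 22.1 and 9.9 under siRNA A, 26.3 and 29.4 under siRNA B, and 35 and 25.4 under control siRNA. Both siRNA A arrays lay below both control arrays, and its log2 fold change was -0.55 under siRNA A (limma adjusted p = 0.999) and -0.07 under siRNA B. OAS3 had 172.9 and 248.5 under siRNA A, 163.1 and 262.2 under siRNA B, and 162.0 and 190.4 under control siRNA, with a log2 fold change of 0.22 for each duplex, and OAS2 signals ran between 25.4 and 33.2 over the 6 arrays. DDX60, a helicase linked to antiviral responses, had 145.4 and 94.8 under siRNA A, 130.3 and 211.9 under siRNA B, and 92.1 and 151.9 under control siRNA. Its groups overlapped, and the log2 fold change was -0.01 under siRNA A and 0.44 under siRNA B. Over the 8 sensors and RNA-activated enzymes, the median log2 fold change was -0.08 under siRNA A and 0.11 under siRNA B. Of the 8, 6 were lower under siRNA A than under siRNA B, IFIH1 among them only by its brightest probe set.

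Among the transcription factors, IRF1, which acts downstream of interferon gamma and RNA sensing, had 163.0 and 61.9 under siRNA A, 133.3 and 128.4 under siRNA B, and 150.5 and 137.6 under control siRNA. Its replicate 2 array under siRNA A was again the lowest. The log2 fold change was -0.44 under siRNA A and -0.12 under siRNA B. The other IRF1 probe set gave -0.12 under siRNA A and -0.04 under siRNA B. IRF7, which amplifies interferon production, had 191.1 and 175.8 under siRNA A, 186.0 and 202.1 under siRNA B, and 190.4 and 226.8 under control siRNA, and was -0.17 under siRNA A and -0.09 under siRNA B on the log2 scale. IRF9, the DNA-binding partner of the STAT proteins, had 72.6 and 49.8 under siRNA A, 75.7 and 92.3 under siRNA B, and 67.1 and 75.1 under control siRNA, and was -0.19 under siRNA A and 0.20 under siRNA B.

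Of the 16 RNA-binding and antiviral effectors, 8 were tested. All 8 had a log2 fold change below 0 under siRNA A (all genes, 56.9%), with a median of -0.32, and of -0.18 under siRNA B. On the replicate 2 array of siRNA A all 8 lay below the control mean. On its replicate 1 array IFIT1 (0.07), IFITM1 (0.08) and IFI6 (0.16) lay above that mean on the log2 scale, and the other tested effectors below it. IFIT2, one of the IFIT proteins that bind foreign RNA and restrict its translation, had 91.5 and 42.8 under siRNA A, 115.2 and 75.8 under siRNA B, and 101.7 and 163.5 under control siRNA. Its log2 fold change of -0.87 under siRNA A (SE 0.34, 95% interval -1.58 to -0.16) did not pass (limma adjusted p = 0.973), and its second probe set gave -0.26. The related IFIT1 had 62.0 and 35.8 under siRNA A, 95.8 and 60.1 under siRNA B, and 63.9 and 52.7 under control siRNA. It was -0.22 under siRNA A and 0.32 under siRNA B, with a log2 difference between duplexes of -0.54 (95% interval -1.20 to 0.12, limma adjusted p = 0.751). ISG20 encodes a nuclease that degrades RNA. It had 57.7 and 33.5 under siRNA A, 67.5 and 65.2 under siRNA B, and 62.3 and 60.9 under control siRNA. By this probe set siRNA A lay below control and siRNA B above it, with log2 fold changes of -0.36 and 0.09. Its other probe set, under the filter and not tested, had 13.9 and 3.7 under siRNA A, 34.3 and 36.7 under siRNA B, and 29.6 and 3.5 under control siRNA. There siRNA A overlapped control, while siRNA B lay above it. IFI6, a protein of the endoplasmic reticulum that limits viral replication, had 211.3 and 102.0 under siRNA A, 168.7 and 120.6 under siRNA B, and 211.4 and 166.4 under control siRNA, and its log2 fold change was -0.31 under siRNA A and -0.36 under siRNA B. IFI44 had 41.9 and 22.1 under siRNA A, 48.1 and 33.9 under siRNA B, and 40.7 and 56.1 under control siRNA, and was -0.44 under siRNA A and -0.18 under siRNA B. For both genes the replicate 2 arrays of the SOX9 duplexes were the lowest of the 6. IFIT3, a partner of IFIT1, had 64.5 and 41.0 under siRNA A, 42.7 and 70.0 under siRNA B, and 56.6 and 83.3 under control siRNA, and was -0.33 under siRNA A and -0.26 under siRNA B. IFIT5 had 214.3 and 184.5 under siRNA A, 171.2 and 230.1 under siRNA B, and 211.4 and 244.4 under control siRNA, and was -0.18 with each duplex. Its other probe set gave 0.12 under siRNA A and -0.06 under siRNA B, so the direction for siRNA A was not the same in both. IFITM1, a membrane protein that blocks viral entry, was -0.02 under siRNA A and -0.03 under siRNA B.

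The other 8 effectors, MX1, MX2, RSAD2, BST2, IFI44L, IFI27, IFI35 and XAF1, did not reach the filter, and 6 of them exceeded a signal of 22.0 on no array. MX1, a GTPase that traps viral particles and a widely used marker of interferon responses, had 29.8 and 1.0 under siRNA A, 6.7 and 38.4 under siRNA B, and 26.0 and 35.2 under control siRNA. RSAD2, which encodes the antiviral enzyme viperin, had 16.9 and 26.0 under siRNA A, 17.0 and 34.8 under siRNA B, and 17.9 and 19.6 under control siRNA. The 3 groups overlapped for both genes, and no difference was tested.

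ISG15 is attached to other proteins by enzymes that include UBE2L6, and USP18 removes it and also restrains the interferon receptor. USP18 had signals of 96.5 and 92.2 under siRNA A, 146.3 and 256.8 under siRNA B, and 105.3 and 141.2 under control siRNA. Both siRNA A arrays lay below both control arrays and both siRNA B arrays above them. Against control its log2 fold change was -0.32 under siRNA A (limma adjusted p = 0.999) and 0.61 under siRNA B (limma adjusted p = 0.469). The latter was the largest rise against control of any tested member. USP18 was lower under siRNA A than under siRNA B (log2 difference -0.93, SE 0.30, 95% interval -1.57 to -0.30), and the difference did not pass (limma adjusted p = 0.315, but 0.0243 with the block). Without the replicate 1 array of siRNA B the difference was -1.31, and without the replicate 2 arrays of both duplexes -0.53, each from a fit with a lone array in at least 1 group. ISG15 had 327.2 and 362.1 under siRNA A, 378.3 and 567.7 under siRNA B, and 373.5 and 369.2 under control siRNA, a log2 difference between duplexes of -0.41 (limma adjusted p = 0.836). UBE2L6 had 388.1 and 144.6 under siRNA A, 361.2 and 166.0 under siRNA B, and 371.4 and 382.6 under control siRNA, so that only the replicate 2 arrays of the SOX9 duplexes were low. Its log2 fold change over both duplexes was -0.61 (SE 0.35, limma adjusted p = 0.721), and it was -0.0094 without those 2 arrays.

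The antigen processing members are the immunoproteasome subunits PSMB8 and PSMB9, which trim peptides, and TAP1, which carries them into the endoplasmic reticulum. TAP1 was the only tested member whose 4 siRNA arrays all lay below both control arrays (all genes, 11.8% in that arrangement). It had 165.2 and 169.5 under siRNA A, 135.7 and 130.5 under siRNA B, and 193.2 and 181.0 under control siRNA. Its log2 fold change was -0.15 under siRNA A and -0.45 under siRNA B (SE 0.26, limma adjusted p = 0.583). PSMB8 had 181.8 and 130.9 under siRNA A, 150.9 and 239.6 under siRNA B, and 207.9 and 244.9 under control siRNA, with log2 fold changes of -0.50 for siRNA A and -0.23 for siRNA B. PSMB9 had 104.0 and 81.6 under siRNA A, 112.4 and 185.7 under siRNA B, and 114.3 and 133.8 under control siRNA. Its log2 fold change against control was -0.37 under siRNA A and 0.20 under siRNA B. The log2 difference between duplexes was -0.57 (95% interval -1.19 to 0.05, limma adjusted p = 0.670).

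**Figure D3:**
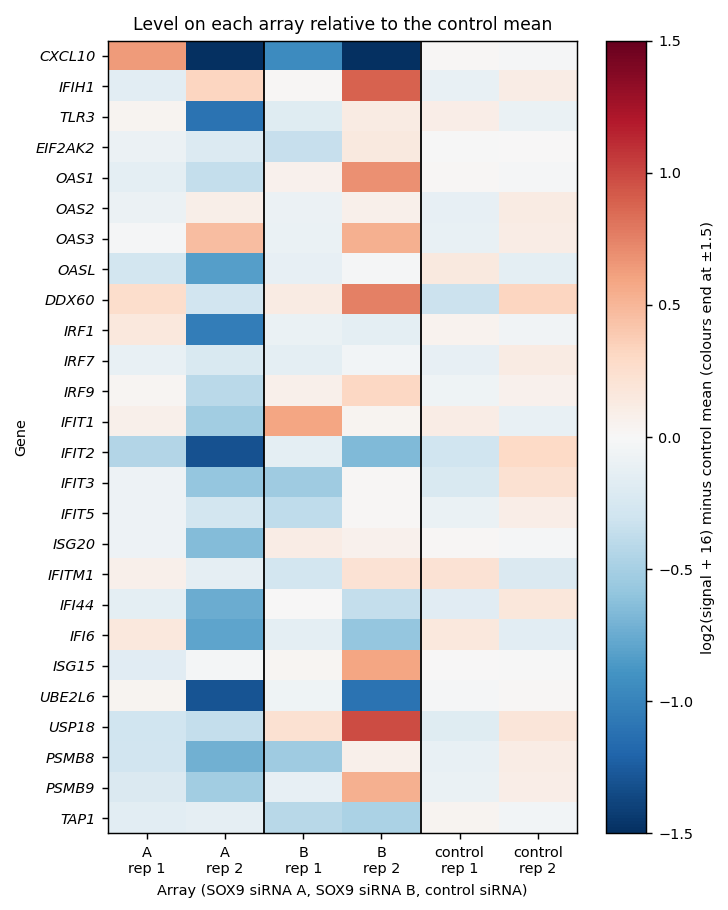
Log2(signal + 16) minus the control mean for the 26 tested members on each of the 6 arrays, with colours ending at 1.5 either way. The siRNA A replicate 2 array is the lowest of the 6 arrays for 16 members, and the siRNA B replicate 2 array is the highest for 10.

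How the groups separated was also counted. With siRNA A, 10 of 26 members had both arrays below both control arrays (all genes, 23.8%) and 0 had both above (all genes, 14.4%). With siRNA B, 4 lay below (all genes, 26.2%) and 5 above (all genes, 13.1%). Between duplexes, siRNA A lay below siRNA B in 7 members (all genes, 15.2%) and above it in 1 (all genes, 15.7%). With both duplexes together, 1 member lay below control (all genes, 11.8%) and 0 above (all genes, 4.58%). In 4 members, OAS1, ISG20, ISG15 and USP18, siRNA A lay below and siRNA B above both control arrays (15.4% of members, against 1.74% of all genes), and the reverse held for 0 members (1.32% of all genes). After median centring the first count was 2, OAS1 and USP18, against 2% of all genes. It was 3 after quantile normalization (all genes, 2.65%) and 3 after a common trimmed mean (all genes, 2.6%), OAS1, USP18 and PSMB9 each time. The replicate 2 arrays of both SOX9 duplexes were below the other 4 arrays in 6 members, CXCL10, IRF1, IFIT2, IFI44, IFI6 and UBE2L6 (23.1%, against 12.5% of all genes). The siRNA A replicate 2 array was the lowest of the 6 in 16 members (61.5%, against 24.7% of all genes), and the siRNA B replicate 2 array was the highest in 10 members (38.5%, against 43.2% of all genes).

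The other genes of the pathway gave 0 calls in any of the 6 lists and 4 comparisons in the fit without the replicate block. With the block, the other interferon-stimulated genes had 3 of 42 called in siRNA A against control (all genes, 1.79%), 5 in siRNA B against control (all genes, 5.94%), 4 with both duplexes against control (all genes, 3.53%) and 2 in siRNA A against siRNA B (all genes, 2.9%). The RNA sensors and adaptors had 1 called in siRNA B against control, and the JAK-STAT genes had 1 there and 1 with both duplexes against control. Of 18 interferon genes with a probe set, 0 were tested, the highest signal of any was 24.7, and IFNB1 ran from 1.6 to 4.9. The 6 tested interferon receptor subunits had a median log2 fold change of -0.43 under siRNA A and -0.36 under siRNA B. IL10RB, a subunit of the type III interferon receptor, had 616.7 and 441.0 under siRNA A, 502.6 and 476.1 under siRNA B, and 881.8 and 702.7 under control siRNA, and its log2 fold change was -0.58 under siRNA A and -0.67 under siRNA B (limma adjusted p = 0.999 and 0.402). IFNGR2, of the interferon gamma receptor, was -0.45 under siRNA A and -0.50 under siRNA B, and IFNAR2, of the type I receptor, was -0.40 under siRNA A and -0.45 under siRNA B. In all of these, the 4 siRNA arrays lay below both control arrays, an arrangement held by 11.8% of all genes, and none passed the test. IFNAR1, the other subunit of the type I receptor, had 634.2 and 617.7 under siRNA A, 382.1 and 482.4 under siRNA B, and 496.1 and 546.2 under control siRNA, with a log2 fold change of 0.26 for siRNA A and of -0.27 for siRNA B. The 22 other RNA sensors and adaptors had medians of -0.03 under siRNA A and -0.12 under siRNA B. RIGI, the cytosolic sensor of RNA ends, was -0.11 under siRNA A and 0.15 under siRNA B, and IRF3, the factor that starts interferon transcription, was -0.22 under siRNA A and -0.12 under siRNA B. The 20 JAK-STAT genes had medians of -0.08 under siRNA A and -0.07 under siRNA B.

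Of the 42 other interferon-stimulated genes tested, the medians were -0.02 under siRNA A and -0.02 under siRNA B, and 0 were called. An unadjusted p below 0.05 was seen for 3 of the 42 in siRNA A against control (all genes, 4.69%), 7 in siRNA B against control (all genes, 11.3%), 6 with both duplexes against control (all genes, 7.75%) and 6 in siRNA A against siRNA B (all genes, 8.25%). CXCL11, a chemokine of the same receptor as CXCL10, had 1709.5 and 682.4 under siRNA A, 442.1 and 55.5 under siRNA B, and 867.0 and 1308.6 under control siRNA. Both siRNA B arrays lay below all the others, with a log2 fold change of -2.58 (SE 0.61, limma adjusted p = 0.117, and 2.07e-16 with the block). From replicate 1 to replicate 2 its signal fell under both duplexes and rose under control, so the blocked p may be too low. HERC5, the main ligase that attaches ISG15, had 95.4 and 116.2 under siRNA A, 172.9 and 227.1 under siRNA B, and 69.8 and 99.8 under control siRNA, with both siRNA B arrays above the others. DDX60L, a relative of DDX60, had 62.0 and 91.6 under siRNA A, 114.1 and 170.9 under siRNA B, and 50.5 and 45.1 under control siRNA. Their log2 fold changes under siRNA B were 1.10 for HERC5 (limma adjusted p = 0.142, and 0.00212 with the block) and 1.29 for DDX60L (limma adjusted p = 0.112, and 0.000269 with the block). The 18 other antigen presentation genes had a median of -0.21 in siRNA A against siRNA B, and all 5 tested HLA class I genes were lower in value under siRNA A than under siRNA B, among them HLA-B at -0.72 (limma adjusted p = 0.510). The HLA probe sets can cross-hybridise between genes.

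**Figure D4:**
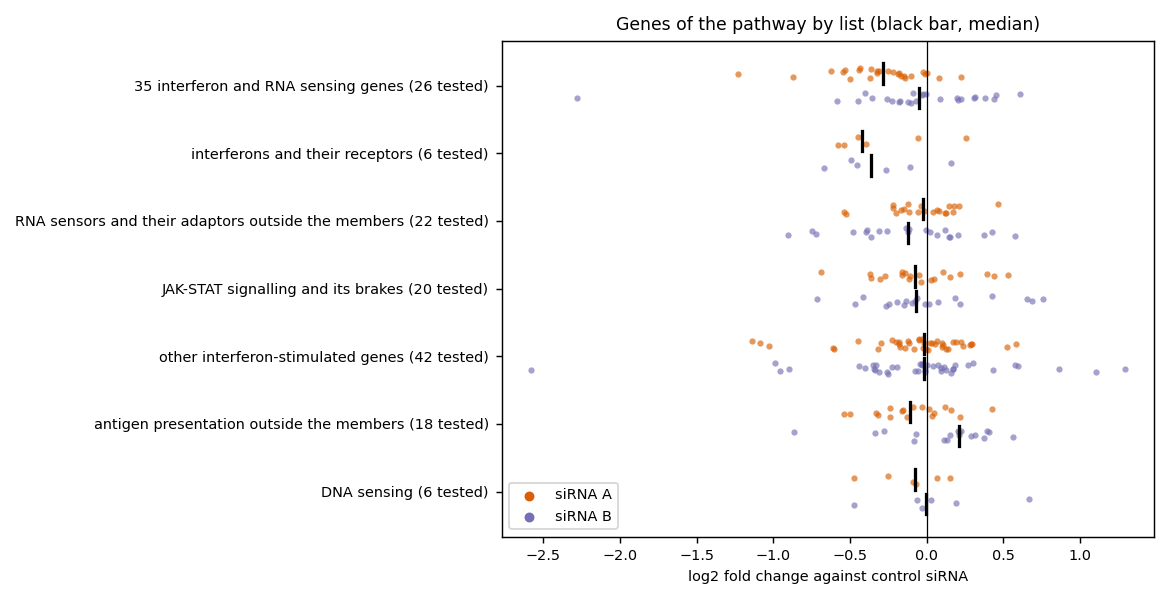
Log2 fold change against control of the 26 tested members and of the 6 other pathway lists, with orange points for siRNA A, purple points for siRNA B and a black bar at each median. The medians of the members are -0.28 under siRNA A and -0.05 under siRNA B, and the points of both duplexes overlap in every list.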

How the data were processed

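Cells were profiled on 6 Affymetrix U133 Plus 2.0 arrays, 2 per group, grouped by the sample titles. The deposited values are intensity on a linear scale, 1 MAS5 signal for each of 54675 probe sets, per the submitters' processing notes; its version and target for scaling are not stated there. The authors' scaling was kept and log2(signal + 16) taken, a scale on which changes of dim genes come out too small. After removal of 62 control probe sets, 41097 probe sets named 1 gene, 1801 several and 11777 none, and each gene was represented by its brightest probe set. Genes under the probe set median, 5.25 as log2 or 22.0 as signal, were not tested. Differences were fitted in limma 3.58.1 (R 4.3.3) over all 6 arrays with a trend, 3 residual and 12.8 prior degrees of freedom, and adjusted by Benjamini-Hochberg over 12431 genes. The procedure was also run on simulated data in which the arrays varied independently, so deviations shared between arrays were not covered by that run.

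Nothing in the labels says that a replicate number marks a shared culture or day, yet deviations of same-numbered arrays correlated at 0.63 between the SOX9 duplexes and at 0.18 between each duplex and control, which met the bar set for giving blocked values. The main fit had no replicate term and ignores any pairing. A fit with the replicate number as a block was run as an alternative, and its p-values stand beside the results they change. That choice was made from the data, and blocked p-values may be too low, since limma then had only its trend to set the spread. The members, lists and tests were chosen with earlier results of these data known. Genes were named by a rule: every member, and up to 3 genes per list with the smallest unadjusted p, plus SOX9 and genes central to the pathway. The 10 members with the smallest unadjusted p were described with their signal on every array and the limma test of at least that comparison. The alternatives tried were other offsets, scalings, filters and summaries of probe sets, fits of only the groups compared, the replicate block, and arrays left out. Intervals cover the spread between these arrays only, and the number of arrays limits their precision.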

Additional observations from a re-analysis of the deposited data

Results flagged for a closer look

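OAS1, ISG20, ISG15 and USP18 stood out because both siRNA A arrays lay below both control arrays while both siRNA B arrays lay above them. After median centring this held only for OAS1 and USP18. After quantile normalization or a common trimmed mean it held for OAS1, USP18 and PSMB9. The difference itself, siRNA A against siRNA B, was tested for each flagged member. It did not pass in the fit of all 6 arrays without the replicate block. The log2 difference was -0.63 for OAS1 (limma adjusted p = 0.589), -0.45 for ISG20 (limma adjusted p = 0.804), -0.41 for ISG15 (limma adjusted p = 0.836) and -0.93 for USP18 (limma adjusted p = 0.315). For USP18 the call changed with the replicate block, to a limma adjusted p of 0.0243. Without siRNA B replicate 1 its log2 difference was -1.31, from a fit with a lone siRNA B array. The replicate 2 array of siRNA B was the highest of the 6 for OAS1, ISG15 and USP18, and it was also the highest for 43.2% of all genes tested. Its part in the result was not tested. No group held more than 2 arrays, so single arrays could not be tested as outliers.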

How the results depend on the processing

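The count of members called was 0 in each comparison and stayed at 0 under other offsets, scalings, filters, probe set summaries, trends and fits of only the groups compared. With the replicate block it was 1 (CXCL10) in each comparison with control and 2 (CXCL10 and USP18) in siRNA A against siRNA B. Median centring together with the block, an alternative chosen after seeing the data, gave 0 for siRNA A against control, 1 (CXCL10) for siRNA B against control, 1 (CXCL10) for both duplexes against control and 1 (USP18) for siRNA A against siRNA B, so the blocked calls of CXCL10 for siRNA A against control and between duplexes were lost. With arrays left out the count did not always stay at 0, but such fits hold a lone array in at least 1 group. Leaving out 1 array in turn, the log2 fold change of CXCL10 in siRNA B against control ran from -3.62 to -0.94. That of USP18 between duplexes ran from -1.31 to -0.56. Without the replicate 2 arrays of both duplexes, the median log2 fold change of the members was -0.083 for siRNA A against control (all genes, -0.01). For siRNA B against control it was -0.11 (all genes, -0.17). Without the replicate 1 arrays of both duplexes, 7 of 26 members were called for siRNA A against control (all genes, 1405 of 12431). The count of members was 6 for siRNA B against control (all genes, 3164) and 6 for both against control (all genes, 2668). Between duplexes it was 6 (all genes, 1171). In this setting the lone arrays were assumed to vary like the control arrays. Calls over all genes rose as well, so these counts are not read as results for the members. The median of siRNA A against siRNA B was 0.056 without the replicate 2 arrays, against -0.30 with all arrays. Over all genes tested it was 0.154, against -0.03. The median of siRNA A against control stayed below 0, between -0.46 and -0.083, while that of siRNA B against control ran from -0.14 to 0.071. For the 10 members with the smallest unadjusted p, the difference with that p kept its direction under all alternatives run. In another comparison, siRNA A against control, CXCL10 was 0.64 without the replicate 2 arrays of both duplexes, against -1.23. Fits of only the groups compared gave no value for both duplexes against control. Counts over all genes moved more. For siRNA B against control 23 genes were called, against 0 with quantile normalization, median centring, a common trimmed mean or no filter, 58 with a stricter filter and 739 with the block. It was 0 without siRNA B replicate 2, 1002 without siRNA B replicate 1, 342 without the replicate 2 arrays of both duplexes and 3164 without their replicate 1 arrays. The stricter filter left 12 members. Median centring made the share of genes lower with siRNA A 48.3%, against 56.9%. The cause of these differences was not tested.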

Other observations

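Genes outside the interferon and RNA sensing lists are not described here. Among the pathway genes with the smallest unadjusted p, TYK2, a JAK kinase of the interferon receptors, was 0.76 with siRNA B against control (limma adjusted p = 0.301). UNC93B1, which brings endosomal Toll-like receptors to their compartment, was -0.90 with siRNA B against control (limma adjusted p = 0.280, and 0.0403 with the replicate block). TICAM1, the adaptor of TLR3, was -0.75 with siRNA B against control (limma adjusted p = 0.334). IRF2BP2, a corepressor, was -0.70 with both duplexes against control and was not called (limma adjusted p = 0.535, and 0.0104 with the replicate block).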
